A study of Mus musculus with 59 samples.

Results

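The genes that write, copy, protect and remove DNA methylation were followed by RNA-seq in single mouse epiblasts lacking one of the histone methyltransferases G9a (encoded by Ehmt2) or EZH2. The set was chosen by gene symbol and holds 8 of the 22134 genes with a listed transcript: the methyltransferase genes Dnmt1, Dnmt3a and Dnmt3b, the catalytically inactive cofactor Dnmt3l, the hemimethyl-CpG binding factor Uhrf1, and the dioxygenase genes Tet1, Tet2 and Tet3. Each gene was represented by its transcript with the highest mean raw count. All 8 were detected in all 14 epiblasts and all 8 passed the filter on low counts in both crosses, so none was lost before testing.

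The epiblast is the embryonic part of the postimplantation conceptus, and it was dissected here at E6.25. The Ehmt2 cross gave 4 epiblasts labelled G9a+/+ and 4 labelled G9a-/-, and the Ezh2 cross gave 3 labelled Ezh+/+ and 3 labelled Ezh-/-. All were of a mixed background and came from matings of heterozygous parents. The mutant groups are written Ehmt2-/- and Ezh2-/- below, and the other groups are called controls. The labels give the controls as wild type, whereas the study describes its controls as wild type or heterozygous, and which of these controls, if any, is heterozygous is not known here. Ezh2 itself was at 51.6 and 64.9 CPM in Ezh2 controls 1 and 2, against 108 CPM in control 3 and 87.1 to 103 CPM in the Ehmt2 controls. Ehmt2 was at 10.5, 11.2, 15.8 and 34.1 CPM in Ehmt2 controls 1 to 4, against 16.3 to 18.2 CPM in the Ezh2 controls. The Ehmt2 allele derives from a published conditional allele, in a line that also carried a ΔPE-Pou5f1-EGFP reporter, whereas the Ezh2 allele is a separate published one. Each library is 1 epiblast, so lower RNA per cell and fewer cells of one type cannot be told apart in any value below.

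DNMT3A and DNMT3B place methyl groups on previously unmethylated CpG sites, and DNMT3L binds and stimulates both without catalysing the reaction itself. UHRF1 recognises the half-methylated CpG sites left by replication and brings DNMT1 to them, so that the pattern is copied to the new strand. TET enzymes oxidise 5-methylcytosine, the first step of its active removal. The genome is globally remethylated between the blastocyst and the epiblast, which makes the peri-implantation embryo the usual setting in which the de novo enzymes are studied.

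The deposited values were raw counts per Ensembl transcript. Counts summed to between 30161171 and 68464895 per epiblast over all transcripts, and to between 12495094 and 28434545 when 1 transcript per gene was kept, because reads in shared exons had been counted for several isoforms. Levels are given as CPM, the count of a transcript relative to its library total, after TMM scaling of all 14 libraries, and levels of different genes are compared only per kilobase of exon. Both libraries numbered replicate 4 of the Ehmt2 cross stood apart from the other 12, as the deepest libraries and the only ones with a row of unaligned reads. Their values are therefore marked, and results are also given without them. The targeted genes were reduced in their own knockouts. Ehmt2 had CPM of 10.5, 11.2, 15.8 and 34.1 in the controls and 4.83, 4.54, 3.29 and 9.79 in Ehmt2-/- (log2 fold change -1.63, edgeR adjusted p = 0.00454). Ezh2 had 51.6 to 108 in the controls of its cross and 11.4, 11.6 and 15.98 in Ezh2-/- (log2 fold change -2.52, adjusted p = 0.0160).

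The start sites of the de novo genes differ in sequence context, and the promoters shown here are those to which the isoform counts below refer. Each is the 250 bases before a RefSeq start on GRCm38.p6, written 5′ to 3′ with every CG dinucleotide, the substrate of these enzymes, in capitals. The upstream Dnmt3a promoter (chr12:3806730-3806979, plus strand) serves the long form, and the internal one (chr12:3891494-3891743, plus strand) serves the short form known as DNMT3A2. Another upstream Dnmt3a window (chr12:3806910-3807159, plus strand), which overlaps the first, is not shown. Dnmt3b is represented by chr2:153649199-153649448 and Dnmt3l by chr10:78049592-78049841, both on the plus strand.
Dnmt3a, upstream: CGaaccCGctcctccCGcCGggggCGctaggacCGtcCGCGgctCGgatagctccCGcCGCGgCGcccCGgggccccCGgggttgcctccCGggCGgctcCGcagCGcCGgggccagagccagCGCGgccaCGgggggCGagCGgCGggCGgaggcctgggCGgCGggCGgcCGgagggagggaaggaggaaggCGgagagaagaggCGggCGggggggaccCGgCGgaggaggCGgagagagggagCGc
Dnmt3a, internal: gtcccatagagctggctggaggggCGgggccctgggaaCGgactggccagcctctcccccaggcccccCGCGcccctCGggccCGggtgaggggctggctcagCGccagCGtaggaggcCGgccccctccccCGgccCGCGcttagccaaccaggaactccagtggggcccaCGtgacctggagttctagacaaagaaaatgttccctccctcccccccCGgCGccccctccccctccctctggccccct
Dnmt3b: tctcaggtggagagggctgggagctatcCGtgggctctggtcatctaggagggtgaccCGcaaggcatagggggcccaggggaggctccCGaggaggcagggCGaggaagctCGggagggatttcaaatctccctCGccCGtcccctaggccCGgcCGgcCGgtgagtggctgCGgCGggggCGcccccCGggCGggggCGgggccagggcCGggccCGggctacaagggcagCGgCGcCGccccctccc
Dnmt3l: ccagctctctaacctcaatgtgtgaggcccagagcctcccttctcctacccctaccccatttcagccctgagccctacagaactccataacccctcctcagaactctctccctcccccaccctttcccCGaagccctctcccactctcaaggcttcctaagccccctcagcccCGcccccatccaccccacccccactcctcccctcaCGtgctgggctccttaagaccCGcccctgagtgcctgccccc

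The upstream Dnmt3a sequence held 38 CG dinucleotides, and 1.88% of the 32851 RefSeq promoter windows of the same length held at least as many. The overlapping upstream window that is not shown held 40 (1.31% of windows). The internal Dnmt3a window held 15 (27.3% of windows), the Dnmt3b window 21 (16.3%) and the Dnmt3l window 4 (62.2%). A CG dinucleotide, which reads the same on both strands, was present in 92.1% of all windows, with a median of 6. Among the other members, the Tet2 window was the richest with 51 CG dinucleotides, a number reached by 0.067% of windows. Tet1 had 15 and Tet3 had 17. The remaining Dnmt3l starts had 3 and 5, Uhrf1 had 10 and 30 at its start sites, and Dnmt1 had 2, 7 and 26. These counts describe sequence alone, since the methylation data of the series were not analysed here.

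In control epiblasts the family was dominated by Dnmt3b. Over the 7 controls of both crosses its level was 409 ± 35.9 CPM per kb (SD, n = 7; range 377 to 479), equal to 1766 ± 155 CPM (SD, n = 7). The remaining members formed a middle group of Uhrf1, Dnmt1, Dnmt3a and Tet1 and a low group of Tet3, Dnmt3l and Tet2. In the middle group Uhrf1 stood at 35.8 ± 6.54 CPM per kb, Dnmt1 at 28.5 ± 1.97, Dnmt3a at 27.5 ± 4.57 and Tet1 at 27.003 ± 3.22 (SD, n = 7 each). In the low group Tet3 stood at 3.33 ± 0.536 CPM per kb, Dnmt3l at 2.20 ± 1.15 and Tet2 at 0.642 ± 0.197 (SD, n = 7 each). Tet1 was thus the main Tet transcript of the E6.25 epiblast and Dnmt3b the main methyltransferase transcript.

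Neighbours in this order were compared within each control by an exact two-sided sign-flip permutation test of log2(CPM per kb + 0.5). With 7 controls the smallest possible p is 0.0156, and after Benjamini-Hochberg adjustment over the 7 neighbouring pairs none passed 0.05. The lowest exact p was reached by 2 pairs, Dnmt3b over Uhrf1 and Tet1 over Tet3. Dnmt3b exceeded Uhrf1 11.4-fold and Tet1 exceeded Tet3 7.21-fold, each in 7 of 7 controls (exact permutation p = 0.0156, adjusted p = 0.0547). Uhrf1 over Dnmt1 and Dnmt3l over Tet2 were each seen in 6 of 7 controls (exact permutation p = 0.0312, adjusted p = 0.0547). Dnmt1, Dnmt3a and Tet1 could not be ordered by these data (exact permutation p = 0.438 and 0.875 for the neighbouring pairs, n = 7). Tet3 and Dnmt3l differed by 0.61 ± 0.74 (SD, n = 7) on the log2 scale, a difference smaller than its own spread (exact permutation p = 0.0781).

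**Figure D1:**
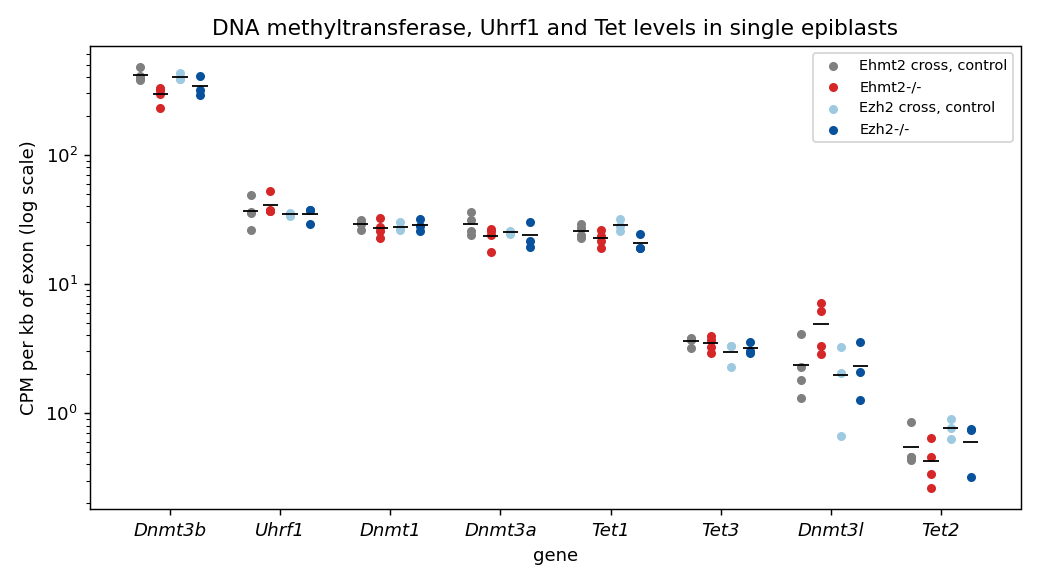
CPM per kb of exon (log axis) of the 8 genes in every epiblast, ordered by their mean log2 level in the 7 controls. Points are single epiblasts coloured by group and black bars are group means. Dnmt3b lies above the rest in all 14 epiblasts, and Tet3, Dnmt3l and Tet2 lie below the middle group.

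The spread between control epiblasts also differed by gene. The coefficient of variation over the 7 controls was 6.92% for Dnmt1, 8.79% for Dnmt3b and 11.9% for Tet1. It was 16.1% for Tet3, 16.6% for Dnmt3a and 18.3% for Uhrf1, and reached 30.6% for Tet2 and 52.0% for Dnmt3l. The least and most variable genes differed in depth as well: Dnmt1 rested on 4951 to 7475 counts per control and Dnmt3l on 39 to 363. Small changes in Dnmt3l or Tet2 were therefore less detectable than those in Dnmt1 or Dnmt3b.

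Isoform counts were used to ask which ends of these genes were transcribed. Dnmt3a lies on chromosome 12 from 3807030 to 3914443 (GRCm38, plus strand) and has 18 listed isoforms, the internal start of the short form lying at 3891728. The 5 isoforms that end before this internal start had mean raw counts of 6.64 to 39.6 per kb, with 0 to 101 counts in any epiblast. One of these, Dnmt3a-206, shares 751 of its 827 exon bases with the long form and had 39.6 counts per kb. Dnmt3a-203, which begins at the internal start, had 1164 counts per kb. The long form itself (Dnmt3a-201) had 1021 counts per kb, but 5307 of the bases of Dnmt3a-203 lie within it, so that most of its reads could come from either. Among the isoforms that begin after the internal start, Dnmt3a-209 with 61.9 counts per kb and the retained-intron form Dnmt3a-214 with 202 were also low. Whole-isoform counts thus placed few Dnmt3a reads upstream of the internal start in any of the 14 epiblasts.

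**Figure D2:**
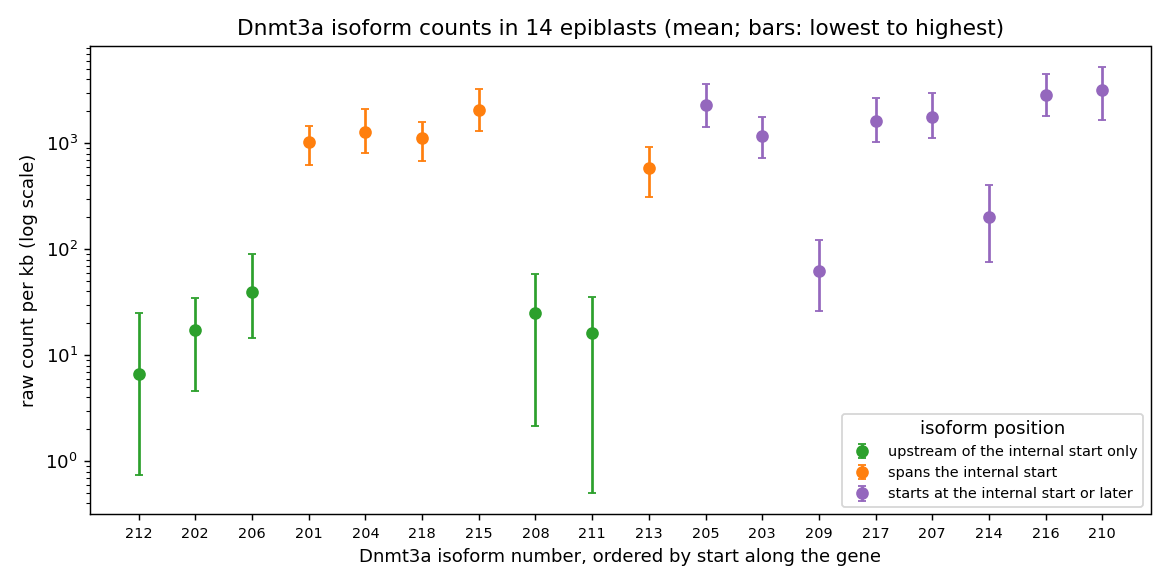
Raw count per kb (log axis) of the 18 listed Dnmt3a isoforms, ordered by start along the gene. Points are means over 14 epiblasts and bars run from the lowest to the highest epiblast, with a lowest value of 0 drawn at 0.5. The 5 isoforms lying wholly upstream of the internal start stay below 100 counts per kb in every epiblast.

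A short isoform at the 5′ end was also listed for Uhrf1. Uhrf1-207, of 529 bases, had 977 counts per kb against 1516 for the full-length Uhrf1-201, a far smaller gap between the 5′ part and the whole than in Dnmt3a. For Dnmt3l, the most upstream isoform (Dnmt3l-204) had 0 counts in 13 epiblasts and 8 counts in Ehmt2-/- replicate 1. The 3 isoforms that begin at 78055335 on chromosome 10 had a mean of 159 counts, against 208 for the full-length Dnmt3l-201, with which each shares 731 bases. The 10 protein-coding isoforms of Dnmt3b had mean counts of 49147 to 62358 and could not be separated, which includes forms that differ in exons of the catalytic region. Tet1-206 and Tet1-201, which differ at their first exons, had means of 14019 and 13809 counts.

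The Ehmt2 cross asked how the methylation machinery is expressed when the main H3K9me2 methyltransferase is missing from the epiblast. None of the 8 genes was called at an edgeR adjusted p of 0.05, against 0.670% of the 49872 transcripts tested in this cross. At an unadjusted p of 0.05, Dnmt3b and Dnmt3l passed, which is 2 of 8 against 11.8% of all tested transcripts. The median log2 fold change of the 8 genes was -0.14, with 6 below and 2 above 0, and that of all tested transcripts was -0.01.

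Dnmt3b (chromosome 2, 153649454 to 153687726, plus strand) had CPM of 1764, 1698, 2070 and 1629 in Ehmt2 controls 1 to 4 and of 988, 1280, 1424 and 1381 in Ehmt2-/- epiblasts 1 to 4. All 4 mutants lay below all 4 controls, replicate 4 included. Means were 1790 ± 194 and 1268 ± 196 CPM (SD, n = 4 each), a ratio of 0.709. Groups without overlap in either direction were found for 5.09% of tested transcripts, and Dnmt3b was the only one of the 8 genes among them in this cross (the smallest p that an exact two-sided permutation test of 4 against 4 can give, and 0.457 after adjustment over 16 tests). The edgeR log2 fold change was -0.50 (SE 0.12, 95% interval -0.75 to -0.24, adjusted p = 0.0935). This adjusted p moved across the threshold with the analysis. It was 0.0166 with DESeq2, where Dnmt3b and Dnmt3l were both called against 3.12% of transcripts, and 0.0436 with replicates 1 to 3 alone, where Dnmt3b was called against 1.13% of transcripts. All 12 Dnmt3b isoforms had negative log2 fold changes, from -0.60 to -0.23, and the only one called was the retained-intron isoform Dnmt3b-212 (adjusted p = 0.0376).

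Dnmt3l (chromosome 10, 78049842 to 78063622, plus strand) had the opposite sign. Controls 1 to 4 had 3.83, 2.19, 3.02 and 6.81 CPM and Ehmt2-/- epiblasts 1 to 4 had 11.9, 5.52, 4.78 and 10.4 CPM. Mutants 1 and 4 lay above all controls, and control 4 exceeded mutants 2 and 3, so the groups overlapped (exact permutation p = 0.114, n = 4 each). The mean was 2.05 times that of controls. The log2 fold change was 1.12 (SE 0.33, 95% interval 0.41 to 1.84, adjusted p = 0.186), and adjusted p = 0.0308 with DESeq2. Leaving out 1 library at a time gave 0.72 to 1.29, the lowest without mutant 1. All 7 tested isoforms were higher by 0.95 to 1.12 on the log2 scale. Even after this difference the gene remained scarce, at 7.10 CPM per kb in its highest epiblast, where Dnmt3b stood at 229.

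Dnmt3a, the second de novo enzyme gene, had 352, 230, 301 and 250 CPM in Ehmt2 controls and 171, 248, 259 and 231 in Ehmt2-/-. Only mutant 1 lay below all controls. The log2 fold change was -0.31 (95% interval -0.64 to 0.02, adjusted p = 0.458), and it was -0.18 without mutant 1 and -0.20 without control 1. Dnmt3a-203, from the internal start, gave -0.27 (95% interval -0.64 to 0.10, adjusted p = 0.574). Of the 18 isoforms 15 had negative values and none was called.

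The maintenance genes showed smaller differences. Dnmt1 (chromosome 9, 20907209 to 20952979, minus strand) had 160, 155, 166 and 140 CPM in Ehmt2 controls and 175, 139, 149 and 121 in Ehmt2-/-, with groups that overlapped and a log2 fold change of -0.10 (95% interval -0.31 to 0.12, adjusted p = 0.763). Uhrf1 (chromosome 17, 56303321 to 56323486, plus strand) had 94.4, 130, 127 and 174 CPM in controls and 135, 131, 131 and 189 in Ehmt2-/-. Both replicate 4 libraries carried the highest Uhrf1 value of their group, and the log2 fold change was 0.16 (95% interval -0.08 to 0.41, adjusted p = 0.624). Uhrf1 lies 21.4 Mb from Ehmt2 on the same chromosome, so alleles linked to the targeted locus cannot be told apart from the genotype for this gene.

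Among the Tet genes, Tet1 (chromosome 10, 62804577 to 62899118, minus strand) had 393, 342, 420 and 324 CPM in Ehmt2 controls and 275, 341, 307 and 377 in Ehmt2-/-. Its log2 fold change was -0.19 (95% interval -0.45 to 0.07, adjusted p = 0.587). With all 4 replicates the groups overlapped. With replicates 1 to 3 alone the log2 fold change was -0.33 (95% interval -0.55 to -0.10, adjusted p = 0.204). There the highest mutant (341 CPM) lay just below the lowest control (342 CPM), and the share of all transcripts separated in this way was not computed. Leaving out either control 4 or mutant 4 also gave -0.33, because the other replicate 4 library then had a term of its own. The value was -0.11 without mutant 1 and -0.12 without control 3. Tet2 (chromosome 3, 133463679 to 133544390, minus strand) had 4.18, 4.23, 4.01 and 7.78 CPM in controls and 3.09, 4.16, 5.92 and 2.40 in Ehmt2-/-. Control 4 was the high value and mutant 4 the low one, and the log2 fold change of -0.34 (95% interval -1.11 to 0.42, adjusted p = 0.761) became 0.08 without that pair. Tet3 (chromosome 6, 83362373 to 83441675, minus strand) had 41.0, 41.9, 34.7 and 39.9 CPM in controls and 31.7, 40.5, 43.4 and 35.3 in Ehmt2-/-, a log2 fold change of -0.06 (95% interval -0.36 to 0.23, adjusted p = 0.905).

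**Figure D3:**
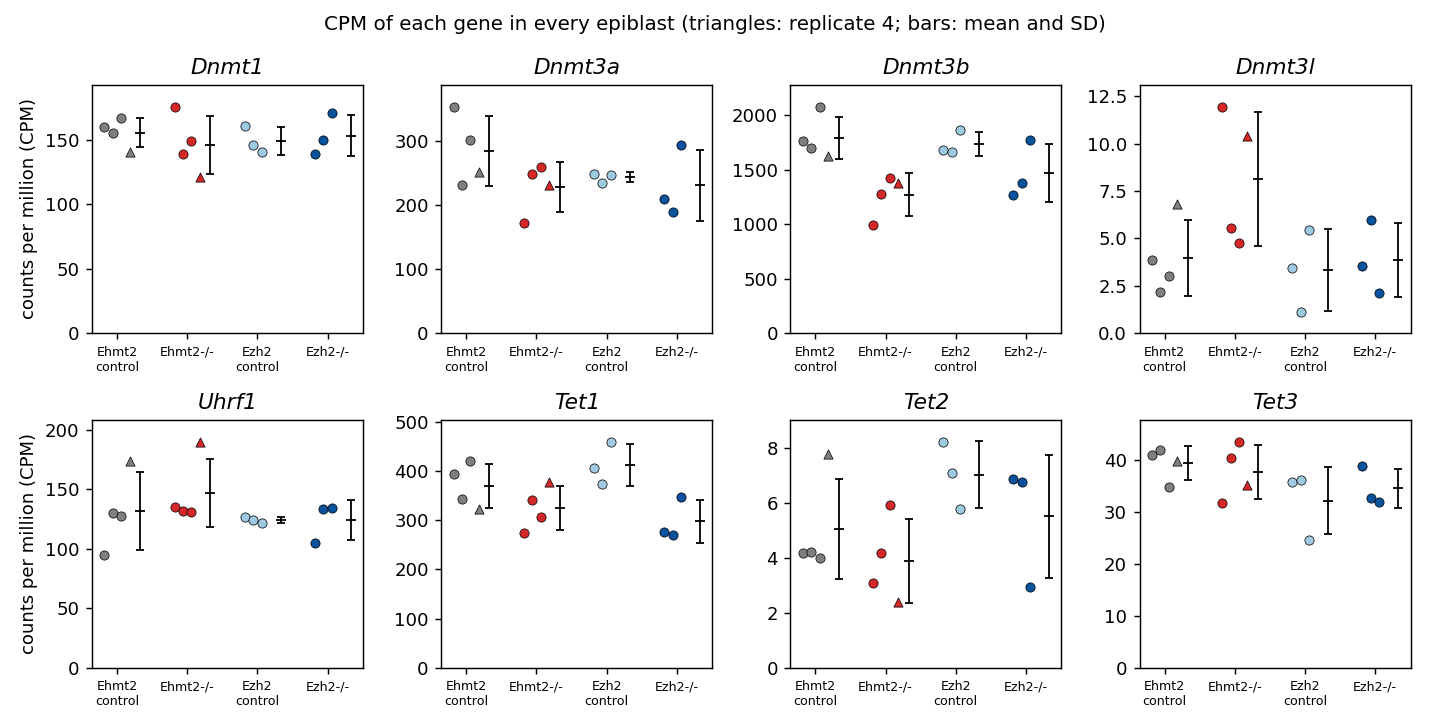
CPM of the 8 genes in every epiblast of both crosses, on linear axes from 0, with triangles for replicate 4 of the Ehmt2 cross and bars for the group mean and SD. Dnmt3b is the gene whose Ehmt2-/- epiblasts (988 to 1424 CPM) all lie below their controls (1629 to 2070 CPM), and Tet1 the one whose Ezh2-/- epiblasts (271 to 348 CPM) all lie below theirs (373 to 459 CPM).

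Markers of extraembryonic ectoderm, the tissue that borders the epiblast, moved with the Ehmt2 genotype in replicates 1 to 3. The mean log2(CPM + 0.5) of 10 such markers was 0.42 to 1.13 in the 4 controls and 4.20, 2.83, 3.04 and 0.30 in mutants 1 to 4. Their summed level was 31.7 to 137 CPM in controls and 36.6 to 323 CPM in mutants. Of the 10 markers, 9 had positive log2 fold changes and 3 were called, against 0.670% of all transcripts. These were Elf5, Tfap2c and Esrrb, which encode trophoblast transcription factors. The study also treats AP2γ, the product of Tfap2c, as a germline regulator. It gives a putative Esrrb enhancer as an example of H3K9me2 enrichment in the epiblast. Higher Tfap2c or Esrrb is therefore not specific to this tissue. In mutant 4, 5 of the 10 (Elf5, Cdx2, Tfap2c, Hand1 and Wnt7b) had 0 counts, whereas Ets2 (1107 counts) and Esrrb (67 counts) were above the 308 to 755 and 1 to 25 counts of the controls. Elf5 had 203 to 2130 counts in mutants 1 to 3. Mutant 4 had 1381 CPM of Dnmt3b and 10.4 CPM of Dnmt3l, against 1629 and 6.81 CPM in control 4. With the marker mean as a covariate, the log2 fold change of Dnmt3b was -0.16 (adjusted p = 0.586), that of Dnmt3l 0.35 (adjusted p = 0.719), that of Dnmt3a 0.10 (adjusted p = 0.839) and that of Tet1 0.18 (adjusted p = 0.518). In the same fit Tet2 gave -0.94 (adjusted p = 0.381) and Dnmt1 gave -0.29 (adjusted p = 0.309), both farther from 0 than without the covariate, and Uhrf1 gave 0.08 and Tet3 0.05. In replicates 1 to 3 the marker mean was 0.76 to 1.13 in controls and 2.83 to 4.20 in mutants, so there it nearly repeats the genotype. This fit therefore cannot tell genotype and marker level apart. It also moved the median log2 fold change of 6 markers of visceral endoderm, a neighbouring layer, from -0.14 to 3.56. The summed CPM of 8 epiblast markers was 885 to 1188 in Ehmt2 controls and 594 to 965 in Ehmt2-/-, and edgeR called none of these 8 markers with all replicates. It called Fgf5 lower with replicates 1 to 3 alone (adjusted p = 0.0493), against 1.13% of transcripts, and DESeq2 called Pou5f1 and Fgf5 lower, against 3.12%. The part of either in the differences above was not tested further.

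**Figure D4:**
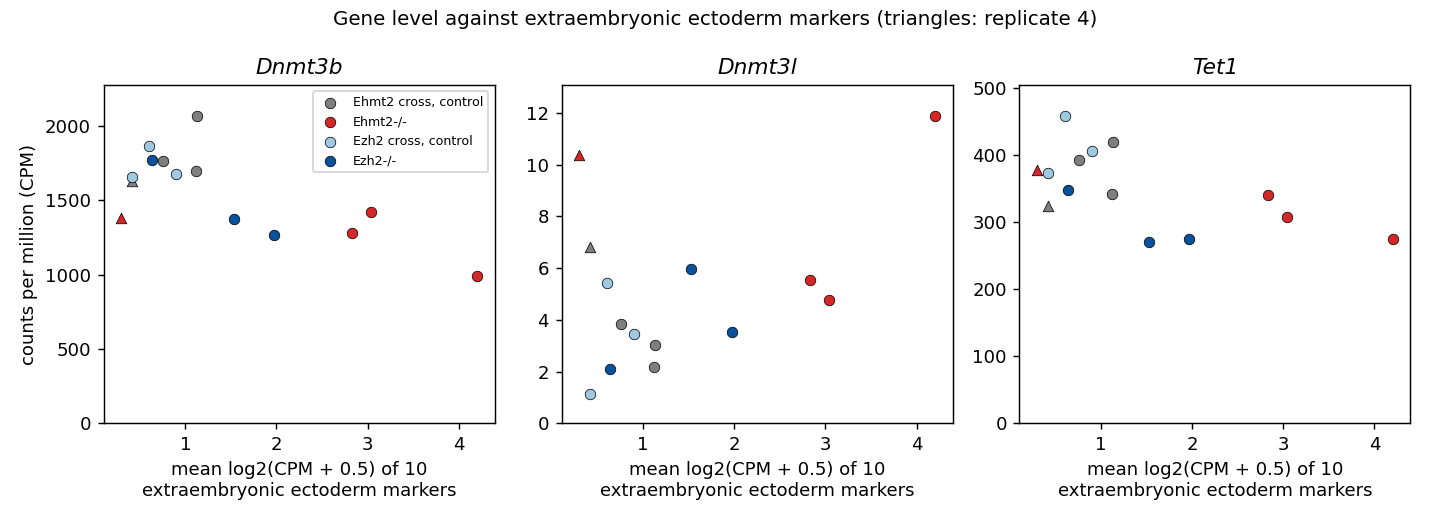
CPM of Dnmt3b, Dnmt3l and Tet1 (linear axes from 0) against the mean log2(CPM + 0.5) of 10 extraembryonic ectoderm markers, 1 point per epiblast, with triangles for replicate 4 of the Ehmt2 cross. Ehmt2-/- replicates 1 to 3 lie at marker means of 2.83 to 4.20. Replicate 4 lies at 0.30, near the 0.42 of control 4, with a Dnmt3b level of 1381 CPM.

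The Ezh2 cross asked the same question for loss of the H3K27 methyltransferase. Again none of the 8 genes was called at an edgeR adjusted p of 0.05, against 0.0118% of 50855 tested transcripts, a cross in which 6 transcripts were called at all. All 6 were isoforms of the targeted gene Ezh2, and with 1 transcript per gene 0 were called. DESeq2 called none of the 8 genes either, against 0.649% of transcripts. Tet1 alone passed an unadjusted edgeR p of 0.05, 1 of 8 against 7.02% of tested transcripts. The median log2 fold change of the 8 genes was -0.04, against 0.01 for all tested transcripts.

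Tet1 had 406, 373 and 459 CPM in Ezh2 controls 1 to 3 and 275, 271 and 348 CPM in Ezh2-/- epiblasts 1 to 3. The 3 mutants lay below the 3 controls, and the means were 412 ± 43.2 and 298 ± 43.4 CPM (SD, n = 3 each), a ratio of 0.722. Such separation in either direction was found for 13.1% of tested transcripts, and the exact permutation p of 0.1 is the smallest that 3 against 3 can give. The log2 fold change was -0.47 (SE 0.13, 95% interval -0.75 to -0.19, adjusted p = 0.491), and the 6 listed Tet1 isoforms ranged from -0.62 to -0.36 with none called. DESeq2 gave an adjusted p of 0.0830 for Tet1. Markers of visceral endoderm, the layer around the epiblast, summed to 386 CPM in control 2 and 846 CPM in mutant 1 and to between 6.86 and 14.5 CPM in the other 4 epiblasts of this cross. Tet1 stood at 373 CPM in that control and 275 CPM in that mutant, the first being the lowest control.

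Dnmt3b had 1678, 1658 and 1863 CPM in Ezh2 controls and 1266, 1378 and 1770 in Ezh2-/-. Mutants 1 and 2 lay below all controls and mutant 3 did not, giving a log2 fold change of -0.23 (95% interval -0.50 to 0.04, adjusted p = 0.767). The same epiblasts 1 and 2 had extraembryonic ectoderm marker means of 1.97 and 1.53, against 0.64 in mutant 3 and 0.42 to 0.90 in the controls. Dnmt3a had 248, 235 and 246 CPM in controls and 209, 188 and 294 in Ezh2-/-, again with mutants 1 and 2 low and mutant 3 high. Dnmt3l had 3.45, 1.11 and 5.41 CPM in controls and 3.51, 5.98 and 2.10 in Ezh2-/-, where the groups covered each other (log2 fold change 0.22, 95% interval -0.97 to 1.41, adjusted p = 0.963).

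For the other members the Ezh2 groups also overlapped. Dnmt1 had 161, 146 and 140 CPM in controls and 139, 150 and 170 in Ezh2-/-, with a log2 fold change of 0.04 (95% interval -0.21 to 0.30). Uhrf1 had 127, 124 and 122 CPM in controls and 104, 134 and 134 in Ezh2-/-, with an interval from -0.27 to 0.27. Tet3, which lies 35.8 Mb from Ezh2 on chromosome 6, had 35.8, 36.2 and 24.7 CPM in controls and 38.9, 32.7 and 32.0 in Ezh2-/-. Tet2 had 8.21, 7.08 and 5.78 CPM in controls and 6.87, 6.76 and 2.94 in Ezh2-/-, with an interval from -1.09 to 0.39. The intervals of Dnmt1 and Uhrf1 exclude a 2-fold change in either direction, and those of Dnmt3l and Tet2 do not.

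Whether the crosses differed was tested directly, as the Ehmt2-/- difference minus the Ezh2-/- difference in 1 model of all 14 epiblasts. Neither edgeR nor DESeq2 called any of the 8 genes, against 0.0579% of 55248 transcripts by edgeR and 0.621% by DESeq2, and 0 of 8 passed an unadjusted edgeR p of 0.05, against 8.33% of transcripts. The difference was -0.26 for Dnmt3b (95% interval -0.65 to 0.13, adjusted p = 0.753), 0.28 for Tet1 (95% interval -0.11 to 0.67, adjusted p = 0.728) and 0.90 for Dnmt3l (95% interval -0.50 to 2.31, adjusted p = 0.766). A Dnmt3b difference particular to Ehmt2-/-, or a Tet1 difference particular to Ezh2-/-, was not shown.

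**Figure D5:**
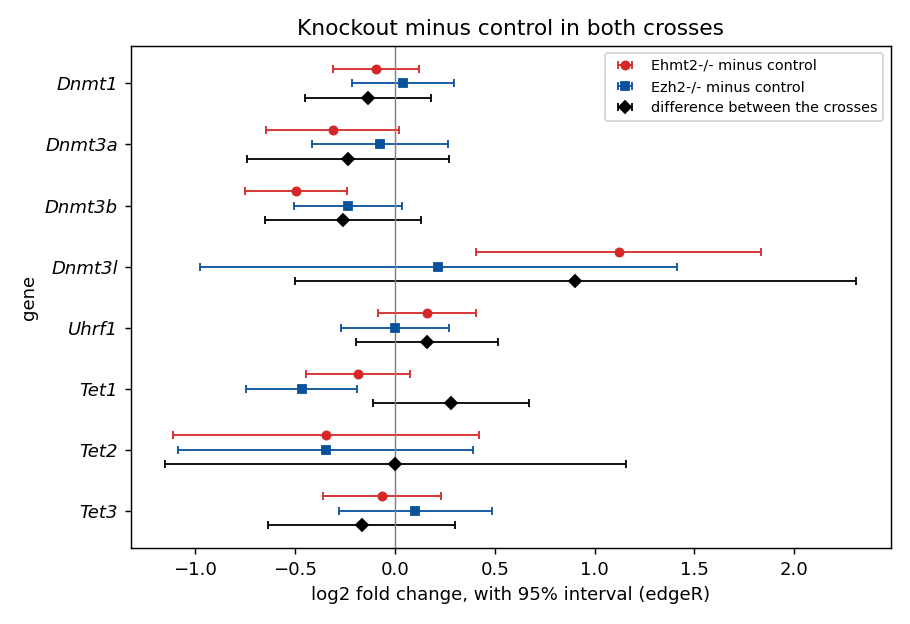
Log2 fold changes of the 8 genes (edgeR) with 95% intervals for Ehmt2-/- minus control, Ezh2-/- minus control and the difference between the crosses. The interval lies wholly below 0 for Dnmt3b and wholly above 0 for Dnmt3l in the Ehmt2 cross, and wholly below 0 for Tet1 in the Ezh2 cross. All 8 intervals of the difference between crosses include 0.

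The balance between members was also read from count ratios within each library, which need no scaling between libraries. Dnmt3b gave 11.0, 10.9, 12.4 and 11.6 counts per Dnmt1 count in Ehmt2 controls and 5.65, 9.21, 9.57 and 11.4 in Ehmt2-/-. Mutant 4 thus lay among the controls on this measure. It also had the lowest Dnmt1 level of the cross, 121 CPM, and its Dnmt3b level of 1381 CPM was below that of every control. In the Ezh2 cross the same ratio was 10.43, 11.4 and 13.3 in controls and 9.10, 9.19 and 10.39 in Ezh2-/-, groups that came close without overlapping. Dnmt3b per Tet1 count was 4.49 to 5.03 in Ehmt2 controls and 3.59 to 4.64 in Ehmt2-/-, with overlapping groups. In the Ezh2 cross it was 4.06 to 4.45 in controls and 4.60 to 5.09 in Ezh2-/-, without overlap. By CPM, 13.1% of tested transcripts separated in this cross, and no such share was computed for ratios. Dnmt3b per Dnmt3a, Dnmt3b per Dnmt3l and Tet1 per Tet3 overlapped in both crosses. Dnmt3b per Dnmt3a, for example, was 6.75 to 7.56 in Ezh2 controls and 6.03 to 7.32 in Ezh2-/-. The contrast of these ratios between the crosses was not tested.

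Across the 12 epiblasts of replicates 1 to 3, some members varied together within groups. After subtraction of each group mean, the log2(CPM + 0.5) of Dnmt3b correlated with that of Dnmt3a (Pearson r = 0.78) and of Tet1 (r = 0.81), and Dnmt3a with Tet1 (r = 0.80). Tet2 and Tet3 gave r = 0.63, and Dnmt1 and its partner Uhrf1 gave r = 0.37. The lowest values were those of Dnmt3l with Tet3 (r = -0.62), Dnmt1 with Tet2 (r = -0.56) and Tet1 with Tet2 (r = -0.47). These are descriptions over 12 libraries that share depth and amplification. Among 7983 genes with a mean of at least 5 CPM, the profiles most like Dnmt3b were those of Ccdc40, Smo, the Hedgehog signal transducer, and Astn1 (r = 0.95 each). For Dnmt3a they were Bend3 (r = 0.92), Grk2 and the epiblast and anterior neural transcription factor gene Otx2 (r = 0.91 each). For Tet1 they were Foxp1 (r = 0.94), Tyro3 and Hook1 (r = 0.93 each). The nearest to Dnmt3l was Efnb2 (r = 0.90), to Dnmt1 Fgd6 (r = 0.97), to Uhrf1 Rbck1, to Tet2 Rnf123 and to Tet3 Prr13 (r = 0.94 each). Subtracting the group means leaves fewer free values than the 12 points. With these and 7983 candidates, values of this size are found for each gene and carry no test.

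A wider list of 41 genes of the methylation pathway, covering methyl-CpG readers, maintenance partners, base-excision repair, Tet partners and methyl donor supply, gave no edgeR call in either cross with all replicates. With replicates 1 to 3 of the Ehmt2 cross, edgeR called 1, the methyl-CpG reader gene Mbd2, higher (log2 fold change 2.16, adjusted p = 0.0169), against 1.13% of transcripts. Mbd2 had 394, 154 and 279 counts in mutants 1 to 3 against 58, 72 and 80 in controls 1 to 3, and 63 counts in mutant 4 against 125 in control 4. DESeq2 called none in the Ehmt2 cross, against 3.12% of transcripts, and 2, Cdca7 and Idh1, lower in the Ezh2 cross, against 0.649%. In the Ehmt2 cross 39 were tested, 8 of which passed an unadjusted edgeR p of 0.05 (11.8% of all transcripts), 16 with positive and 23 with negative log2 fold changes, and their median was -0.08 against -0.01 for all tested transcripts. The lowest unadjusted p values belonged to Zfp445, a KRAB zinc finger gene that protects imprinted methylation, Idh2, a producer of 2-oxoglutarate in mitochondria, and Ogt, the O-GlcNAc transferase that binds TET proteins. Zfp445 gave -0.50 (adjusted p = 0.237), Idh2 gave -0.72 (adjusted p = 0.237) and Ogt gave 0.49 (adjusted p = 0.274) on the log2 scale. In the Ezh2 cross 39 were tested, 5 at an unadjusted p of 0.05 (7.02% of all transcripts), 15 positive and 24 negative, with a median of -0.11 against 0.01. The lowest p values were those of Cdca7, whose product recruits the remodeller HELLS, of Idh1, the cytosolic producer of 2-oxoglutarate, and of Mat2b, a subunit of the methionine adenosyltransferase. Cdca7 gave -0.52 (adjusted p = 0.415), Idh1 gave -1.13 (adjusted p = 0.531) and Mat2b gave -0.60 (adjusted p = 0.568). Dnmt3c, the rodent male germline methyltransferase gene, was listed with 0 to 5 counts per epiblast and could not be tested.

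Genes known to be silenced by promoter methylation in somatic cells were also described, and whether their levels follow the methylation machinery was not tested. The list was drawn up with earlier results of these data known, so its median is not independent of them. It holds Asz1, which the study names among direct G9a targets, and Sohlh2, which the study also assayed in single epiblast cells. Of 15 germline genes on this list 12 were tested in the Ehmt2 cross, 9 with positive log2 fold changes. Of these 12, edgeR called 2 higher and none lower, against 0.670% of all transcripts. Their median was 1.26 against -0.01 for all tested transcripts. A gene scarce in controls, such as Asz1, passed the filter on low counts only through the mutants. Genes scarce in both groups were left out. The filter can thus by itself raise the median of the tested genes, here and in the Ezh2 cross. The called genes were Asz1, a piRNA pathway factor gene, and Sohlh2, a germ cell transcription factor gene. Asz1 had 4, 7, 2 and 0 counts in the controls and 838, 648, 796 and 467 in Ehmt2-/- epiblasts 1 to 4 (log2 fold change 7.87, adjusted p = 3.4e-06). Sohlh2 had 91, 7, 41 and 11 counts in controls and 446, 177, 274 and 334 in Ehmt2-/- (log2 fold change 3.23, adjusted p = 0.0486). With replicates 1 to 3 alone the median of the list was 0.72 and the called genes were Asz1 and Tex19.1, a germ cell gene (log2 fold change 3.31, adjusted p = 0.0171), whereas Sohlh2 had an adjusted p of 0.0729. In that fit 1.13% of all transcripts were called. DESeq2 with all replicates called 4 higher, Asz1, Sohlh2, Ddx4 and Piwil2, against 3.12% of all transcripts. In the Ezh2 cross 13 were tested, 12 with positive log2 fold changes, with a median of 1.28 against 0.01. DESeq2 called 2 there, Mael and Slc25a31, against 0.649% of all transcripts. No call came from edgeR, and 6 passed its unadjusted p of 0.05, against 7.02% of all transcripts. The lowest p there was that of Mael, with 102 to 170 counts per control epiblast and 310 to 430 per mutant (log2 fold change 1.54, adjusted p = 0.186). Neither methylation at these genes nor protein levels of the enzymes were analysed here.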

How the data were processed

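Single E6.25 epiblasts were profiled by RNA-seq after cDNA amplification. The authors trimmed reads, aligned them to GRCm38 with TopHat2 and counted them per Ensembl transcript with HTSeq, and the deposited values are these raw counts. The counting mode and tool versions are not given in the sources used here. Transcripts absent from a file were taken as 0, and the unaligned-read rows of both replicate 4 files (12.6% and 13.3% of their sums) were left out. Names came from GENCODE vM21 on GRCm38 (96.6% of 72515 identifiers matched). Promoter sequences are from RefSeq (GRCm38.p6).

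Transcripts passing filterByExpr were fitted with edgeR 4.0.16 (R 4.3.3; TMM, quasi-likelihood, Benjamini-Hochberg over all transcripts tested). The Ehmt2 fit held a term for replicate 4 against replicates 1 to 3, because the column names of a study table set mutant 4 against control 4 alone, although its methods name all controls. The fit without this term is among the alternatives. A call was an adjusted p under 0.05, counted again with an absolute log2 fold change over 1.4. CPM used joint TMM factors. Exact permutation tests used scipy 1.17.1. Alternatives included DESeq2 1.42.0, other scaling, no filter, 1 transcript per gene, a replicate block and each replicate left out. On simulated counts for the Ehmt2 comparison (13460 genes), 22% of 2-fold decreases and 40% of 2-fold increases were called, and for the Ezh2 comparison (13619 genes) 20% and 22%.

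Depth was 30161171 to 68464895 counts per epiblast, which limits precision for the scarce transcripts. Separate litters are stated for the study but not per sample, so p-values measure the spread between these epiblasts. No pair of replicates agreed within sampling noise (chi-square per degree of freedom at least 16.7). Named genes were the 8 members, the targeted genes, and the list genes that were called or, where none was, the 3 with the lowest p in each cross. For each member the 3 genes with the highest r were also chosen. The members and lists were chosen with earlier results of these data known. Pathway and germline genes are named from those lists. ChIP and bisulfite samples were not analysed here.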

Additional observations from a re-analysis of the deposited data

Results flagged for a closer look

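Within groups of 4 epiblasts, the highest and lowest values of the 8 genes were compared with their nearest neighbours by Dixon's ratio, and 2 of the 16 groups passed its 95% critical value. Chance flags about 1 in 20 such groups. Both were replicate 4 libraries of the Ehmt2 cross. Uhrf1 in Ehmt2-/- replicate 4 was at 189 CPM, against 131 to 135 CPM in the other 3 mutants (ratio 0.936). Tet2 in Ehmt2 control replicate 4 was at 7.78 CPM, against 4.01 to 4.23 CPM in the other 3 controls (ratio 0.942). No difference between the crosses passed the test for any of the 8 genes.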

How the results depend on the processing

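Of 252 alternative values for single genes, 224 kept their direction and their side of the threshold, 6 passed the threshold where the main value did not, and 22 changed sign. In the Ehmt2 cross the number of the 8 genes called was 0 in the main analysis, 2 with DESeq2 (Dnmt3b and Dnmt3l), 1 with no filter on low counts and 1 with replicates 1 to 3 only (Dnmt3b). It was 0 to 1 when a single replicate was left out, with Dnmt3b called without control replicate 4 (adjusted p = 0.0422) or without Ehmt2-/- replicate 4 (adjusted p = 0.0408). In both of these fits the other replicate 4 library had a term of its own and added nothing to the genotype difference. They in effect repeat the fit of replicates 1 to 3, with the same Dnmt3b value of -0.59, and are not separate support. The Dnmt3b log2 fold change stayed between -0.59 and -0.16 over 17 alternatives and its adjusted p between 0.0166 and 0.586, the last with the extraembryonic ectoderm covariate. The cause of these changes was not tested, except that fewer samples enter some of these fits.

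The sign changes were these. In the Ehmt2 cross Tet2 gave 0.08 with replicates 1 to 3 only, and Dnmt3a 0.10, Tet1 0.18 and Tet3 0.05 with the covariate. With single replicates left out, Tet2 ranged from -0.62 to 0.08 and Tet3 from -0.14 to 0.02. In the Ezh2 cross Uhrf1 gave -0.00016 for its second protein-coding transcript, -0.0058 with no filter, -0.02 with 1 transcript per gene and -0.0082 with the replicate block. With single replicates left out there, Dnmt1 ranged from -0.05 to 0.10, Dnmt3a from -0.29 to 0.05, Dnmt3l from -0.25 to 0.76, Tet3 from -0.06 to 0.20 and Uhrf1 from -0.06 to 0.11. Tet2 in the difference between crosses gave -0.0079 with 1 transcript per gene. Tet2 and Tet3 have no other protein-coding transcript listed.

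The replicate block called 0 of the 8 genes in either cross, and it reduced all calls in the Ehmt2 cross from 334 to 117. Same-numbered epiblasts correlated at 0.06 to 0.42 (Ehmt2) and -0.18 to 0.23 (Ezh2). Differently numbered ones correlated at -0.28 to 0.20 (Ehmt2) and -0.29 to 0.26 (Ezh2). The value of 0.42 was that of the replicate 4 pair. These ranges overlap, and whether the numbers mark pairs was not tested. Calls over all transcripts were 334 (main), 1557 (DESeq2), 641 (no filter), 52 (no replicate 4 term) and 573 (replicates 1 to 3) in the Ehmt2 cross, and 6, 330 (DESeq2) and 30 (no filter) in the Ezh2 cross. With the protein-coding transcript of highest count per kb, 5 of the 7 neighbouring pairs of the order passed instead of 0, and Dnmt3a moved above Uhrf1. That choice takes Dnmt3a-210, a fragment of 501 bases. With Dnmt3a-203, an alternative added after seeing the data, 0 passed and Dnmt3a stood above Dnmt1. Dnmt3l and Tet2 rested on the fewest counts.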
